A study of Homo sapiens with 372 samples.

Results

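The lysosomal genes described here are 35 genes chosen by name: subunits of the vacuolar proton pump, hydrolases and other proteins of the lysosomal lumen, and proteins of the lysosomal membrane. The table of expression values lists 34 of them among 9664 genes in all, and CTSZ, a cathepsin, was not analysed here. The 34 fall into 8 subunits of the V1 sector, 4 of the V0 sector and 2 accessory proteins of the pump (14 pump genes), and 7 proteases, 5 glycosidases, 2 lipid-handling proteins of the lumen and 6 membrane proteins (20 genes of lumen and membrane).

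Single cells of A2780, an established human ovarian cancer line, were captured on the Fluidigm C1 system and their polyA RNA was read over its full length with Smart-seq2. The 6 conditions were untreated cells (Ctrl, 46 cells), 5 nM paclitaxel for 16 h (Pac16h, 56 cells) or 48 h (Pac48h, 53 cells), 75 µM celecoxib for 2 h (Cele2h, 63 cells) or 16 h (cele16h, 61 cells), and 5 nM paclitaxel with 75 µM celecoxib for 16 h (PacCele16h, 59 cells). Paclitaxel stabilizes microtubules and celecoxib inhibits cyclooxygenase. Each condition was taken as 1 C1 run, as no replicate is named, so it counts as 1 sample and no test or p-value was made. Every SD given is a spread over cells. Library index blocks were inferred here, in sets of 96, from the number that ends each sample description. Condition, run and (for most conditions) library index block cannot be told apart.

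Expression is given as E-values, log2(N/10 + 1), where N is the TPM of a gene scaled to the highest spike-in RNA of the same cell. Since TPM is per transcript length, levels can be compared between genes. The 338 cells had a median of 6126 to 6630 genes detected per condition, while read numbers are unknown. The median transcript total of a cell relative to Ctrl, on the log2 scale, was −0.99 in Pac16h, −0.64 in Pac48h, −0.76 in Cele2h, −1.52 in cele16h and 0.49 in PacCele16h. The genes were therefore compared on the deposited spike-in scale, where these totals count, and on a same-total scale, where each cell was rescaled to the same total and a gene is read against the rest of its own cell. A gene was counted as having risen or fallen when its mean E-value differed by more than 1.5-fold (0.58 on the log2 scale). Of the 9 markers looked up for A2780, only VIM and KRT18 were listed. Their mean E-values lay between 1.90 and 3.70 and between 0.45 and 1.11. The leukocyte marker LYZ had a mean E-value between 0.11 and 0.24, and COL1A2 and COL3A1, collagen genes of fibroblasts, had mean E-values between 0.20 and 0.96 and between 0.88 and 1.89.

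The vacuolar ATPase pumps protons into the lysosome. Its V1 sector sits in the cytosol and splits ATP, and its V0 sector lies in the membrane and passes the protons. The acid lumen keeps cathepsins, glycosidases and lipid-binding proteins active, and heavily glycosylated membrane proteins such as LAMP1 and LAMP2 line the inner face. Many genes of lysosomes carry a short promoter element with the core CACGTG, which is bound by transcription factors of the TFEB family.

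That core was looked up in the RefSeq promoters (GRCh38.p14) from 250 bases before to 50 bases after each start site, in which 25 of the 34 genes had an entry. CACGTG, which reads the same on both strands, was present in 11 of the 25 (44%), in 13.1% of the 7582 genes of the table with an entry and in 8.77% of all 27305 genes with one. The longer palindrome TCACGTGA, which contains CACGTG, was present in 6 of 25 (24%) against 2.49% and 1.18%. The 6 genes with TCACGTGA were ATP6V0D1, ATP6V1G1, CTSA, GAA, LAMP1 and MCOLN1, and those with CACGTG alone were ATP6V0B, CD63, CTSD, CTSF and NEU1. These are matches of letters, and binding was not measured.

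The stretches below carry the match in capitals and are written 5′ to 3′ on the strand of the gene. They are shown for ATP6V0D1, ATP6V1G1, CTSA and NEU1, whose expression is followed in the next paragraphs, and for MCOLN1 and GAA, whose expression stayed within the limit on both scales. The matches in ATP6V0B, CD63, CTSD and CTSF are not printed, nor is a further match in CTSA and in GAA. ATP6V0D1 and NEU1 are on the minus strand, at chr16:67481184-67481243 and chr6:31862916-31862973. The others are on the plus strand, CTSA at chr20:45891298-45891327, GAA at chr17:80101493-80101522, MCOLN1 at chr19:7522556-7522623 and ATP6V1G1 at chr9:114587699-114587728.
ATP6V0D1: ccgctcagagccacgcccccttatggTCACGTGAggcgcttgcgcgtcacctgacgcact
ATP6V1G1: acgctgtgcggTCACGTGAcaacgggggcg
CTSA: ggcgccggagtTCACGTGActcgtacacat
GAA: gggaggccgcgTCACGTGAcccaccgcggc
NEU1: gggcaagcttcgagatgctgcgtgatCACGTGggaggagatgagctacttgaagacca
MCOLN1: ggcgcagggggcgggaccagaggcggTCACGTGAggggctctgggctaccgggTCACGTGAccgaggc
In the GENCODE version 44 annotation the stretches of ATP6V1G1 and CTSA overlap an exon and the other 4 lie outside exons. The capitals begin 60 bases before the start site in ATP6V0D1, 59 in ATP6V1G1, 26 in CTSA, 77 in GAA, 126 in NEU1, and 42 and 15 in MCOLN1.

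LAMP1 had 6 matches of CACGTG, more than any other of the 25 genes, and the last of them ran across its start site. Of these, 4 stood in a row upstream of the 2 that were part of TCACGTGA. The row lies at chr13:113297021-113297128 on the plus strand.
LAMP1: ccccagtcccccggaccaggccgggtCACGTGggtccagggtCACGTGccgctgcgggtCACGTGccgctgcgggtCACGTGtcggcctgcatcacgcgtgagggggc
LAMP1 was among the lowest of the 34 genes in expression, with a mean E-value of 0.62 ± 0.61 (SD, 46 cells) in Ctrl on the deposited scale, and it stayed within the limit in every treatment on both scales.

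In untreated cells a few pump subunits and CD63 were the most abundant of the 34. ATP6V1F, the F subunit of V1, had a mean E-value of 6.99 ± 0.58 (SD, 46 cells), ATP6V0B, a proton-carrying subunit of V0, 6.75 ± 0.75, and CD63, a tetraspanin of lysosomes and late endosomes, 6.73 ± 0.60 on the deposited scale. The spread over cells covered the gaps between these 3. Next came ATP6V1G1 with 6.21 ± 0.57 and ATP6V0E1 with 5.63 ± 0.67, both also pump subunits. Among the hydrolases CTSC, a protease that activates other proteases by trimming them, was highest with 4.48 ± 1.56 and CTSB, a cysteine protease, was next with 4.36 ± 0.96. Near the floor were CTSF, another cysteine cathepsin, with 0.60 ± 1.12, GAA, the acid glucosidase that degrades glycogen, with 0.68 ± 1.18, TPP1, a peptidase that clips tripeptides from protein ends, with 0.72 ± 1.14, and MCOLN1, a calcium channel, with 0.88 ± 1.18. CTSF was detected in 28.3% of Ctrl cells (exact Clopper-Pearson 95% interval 16.0 to 43.5%) and MCOLN1 in 39.1% (25.1 to 54.6%). These intervals cover counting error only, and a difference in mean E-value understates the change of such low genes.

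On the deposited scale the lysosomal genes that moved were all lower in the single-drug conditions and higher with the combination, as were most of the other genes past the limit. In Pac16h 23 of the 34 fell, against 37.3% of all genes, and 0 rose, against 0.0931%. In cele16h 20 fell, against 43.9%, and 0 rose, against 0.383%. In Pac48h 12 fell (26.6% of all genes) and 0 rose (0.921%), and in Cele2h 11 fell (25.7%) and 0 rose (1.12%). In PacCele16h 20 of the 34 rose, against 30.4% of all genes, and 0 fell, against 1.76%. The median difference over the 34 was −0.84 in Pac16h, −0.37 in Pac48h, −0.41 in Cele2h, −0.85 in cele16h and 0.76 in PacCele16h, beside −0.41, −0.26, −0.26, −0.48 and 0.33 over all genes. Over all genes and cells 34.9% of E-values were 0, and a difference in mean E-value understates the change of low genes. The 34 were not matched to all genes for level. Counts and medians set beside all genes, here and below, are therefore not like for like.

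The same 8 genes fell in all 4 single-drug conditions on the deposited scale: ATP6AP2, ATP6V0B, ATP6V0D1, ATP6V0E1, ATP6V1D, ATP6V1F, CTSA and CTSB. Another 5, CTSF, GAA, LAMP1, MCOLN1 and TPP1, stayed within the limit in every treatment, and these 5 were also the lowest of the 34 in Ctrl. In 15 genes the direction differed between treatments, down with a single drug and up with the combination. The matching counts over all genes are not given here, and 43.9% of all genes fell in cele16h and 30.4% rose in PacCele16h. Of the 14 pump genes 13 fell in Pac16h and 12 in cele16h, beside 10 and 8 of the 20 lumen and membrane genes, a difference that was not tested. The 20 include the 5 lowest genes, for which a difference in mean E-value understates the change, so these counts are not like for like. With the combination 9 pump genes and 11 lumen and membrane genes rose.

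**Figure D1:**
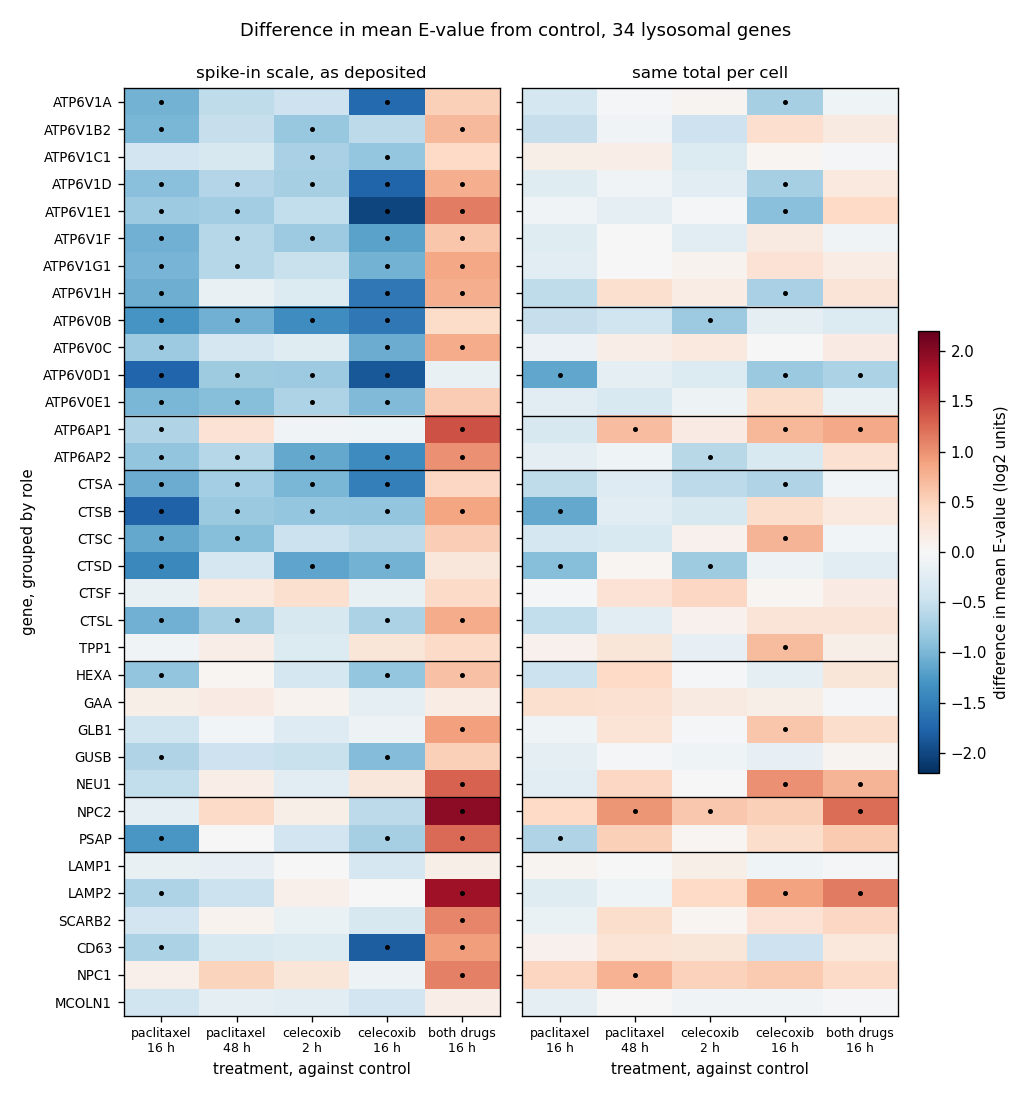
Difference in mean E-value from Ctrl (colour, log2 units) for the 34 genes in rows grouped by role and the 5 treatments in columns, on the deposited spike-in scale at the left and the same-total scale at the right. Dots mark differences past 1.5-fold, which are mostly falls for the single drugs and rises for the combination at the left, and are fewer and of both directions at the right.

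On the same-total scale most of the 34 stayed within the limit, and those that moved went both up and down in cele16h, Cele2h and PacCele16h but one way in Pac16h and in Pac48h. In Pac16h 4 fell, against 10% of all genes, and 0 rose, against 1.4%. Pac48h gave the other direction, with 3 up (3.28% of all genes) and 0 down (5.77%). In Cele2h 1 rose (3.31%) and 3 fell (8.11%). In cele16h 6 rose and 6 fell, against 7.38% and 7.95% of all genes, which is 17.6% of the 34 in each direction. In PacCele16h 4 rose (5.95%) and 1 fell (5.79%). The median difference over the 34 was −0.24, 0.01, −0.02, 0.09 and 0.19 in the same order, beside −0.07, 0.00, −0.02, 0.03 and 0.02 over all genes. Over the 5 treatments 19 genes passed the limit at least once, 8 upwards and 11 downwards, and in 0 of them did the direction differ between treatments. The matching counts of all genes over the 5 treatments are not given here, so these are no trait particular to the 34.

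**Figure D2:**
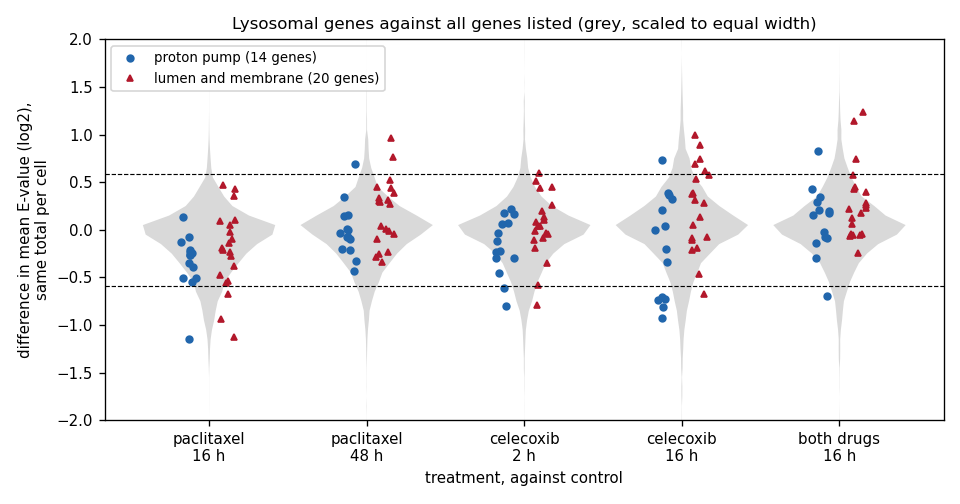
Difference in mean E-value from Ctrl (log2 units, same-total scale) for each of the 34 genes (points, blue for the 14 pump genes and red for the 20 lumen and membrane genes) in the 5 treatments, over the distribution of all 9664 genes (grey, scaled to equal width, shown between −2 and 2). Dashed lines mark the 1.5-fold limit, past which lie 6 genes on either side in cele16h.

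By gene, values from here on are on the same-total scale unless the deposited scale is named. The V1 sector, which holds the ATP-splitting heads and the stalks of the pump, fell in part in cele16h. ATP6V1E1, a stalk subunit (hg38 chr22:17592136-17628749, minus strand), ranged over Ctrl cells from 47.6 to 379 normalized TPM at the same total, with a median of 157. In cele16h it ranged from 0 to 313 with a median of 107, and in PacCele16h from 56.6 to 1054 with a median of 233. The ranges of cells overlapped, with 44 of 61 cele16h cells below the Ctrl median and 42 of 59 PacCele16h cells above it. Its mean same-total E-value was 4.03 ± 0.62 in Ctrl, 3.96 ± 1.07 in Pac16h, 3.82 ± 1.22 in Pac48h, 4.00 ± 1.09 in Cele2h, 3.10 ± 1.45 in cele16h and 4.46 ± 0.80 in PacCele16h. The cele16h difference was −0.92, and 0 of the other 4 passed the limit.

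The other V1 genes that fell in cele16h on the same-total scale were ATP6V1A, the catalytic subunit, ATP6V1D, of the central shaft, and ATP6V1H, a regulatory subunit, with differences of −0.73, −0.73 and −0.71. Mean same-total E-values of ATP6V1A ran 3.15, 2.76, 3.13, 3.22, 2.42 and 3.07 from Ctrl through Pac16h, Pac48h, Cele2h, cele16h and PacCele16h, with SDs from 1.18 to 1.81. ATP6V1D gave 3.25, 2.98, 3.17, 3.02, 2.52 and 3.46 in that order, with SDs from 0.94 to 1.74. For both genes the cele16h level was the lowest of the 6 conditions. ATP6V1H had its 2 lowest means in Pac16h (2.10 ± 1.66) and cele16h (1.94 ± 1.71), beside 2.65 ± 1.36 in Ctrl, 3.00 ± 1.28 in Pac48h, 2.81 ± 1.55 in Cele2h and 2.94 ± 1.63 in PacCele16h. As a ratio of linear means the 4 cele16h values were 0.67 (ATP6V1E1), 0.75 (ATP6V1A), 0.76 (ATP6V1D) and 0.79 (ATP6V1H) of Ctrl, which keeps the direction but not the 1.5-fold limit. With medians over cells ATP6V1H kept its fall, and ATP6V1E1, ATP6V1A and ATP6V1D stood at −0.51, −0.30 and −0.23.

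The 2 most abundant V1 genes did not fall with them. ATP6V1F ranged from 470 to 1602 normalized TPM over Ctrl cells at the same total (median 872) and from 467 to 1739 over cele16h cells (median 1043). Its means at the same total were 6.45 ± 0.36 in Ctrl, 6.19 ± 0.53 in Pac16h, 6.45 ± 0.42 in Pac48h, 6.21 ± 0.60 in Cele2h, 6.65 ± 0.46 in cele16h and 6.37 ± 0.40 in PacCele16h, and ATP6V1G1, a stalk subunit, lay 0.33 above Ctrl in cele16h. ATP6V1B2, the nucleotide-binding subunit next to ATP6V1A, lay between 1.69 (Pac16h) and 2.56 (cele16h) against 2.19 in Ctrl, and ATP6V1C1 between 0.29 below and 0.14 above Ctrl. On the deposited scale all 8 V1 genes except ATP6V1B2 fell in cele16h, by 0.85 to 2.01, and 6 of the 8 rose in PacCele16h. Reads of ATP6V1F may be shared with KCP, whose exons on the opposite strand cover 20.6% of its exonic bases, and ATP6V1G1 and ATP6V1E1 have 7 and 3 named pseudogenes.

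In the V0 sector, ATP6V0D1 was the gene that fell most, and it fell in 3 treatments at the same total. It encodes the d subunit, which links the V0 ring to the V1 shaft (hg38 chr16:67438014-67481181, minus strand), and its promoter match is printed above. Over Ctrl cells it ranged from 2.74 to 305 normalized TPM with a median of 117, while the medians were 52.8 in Pac16h, 94.0 in Pac48h, 79.8 in Cele2h, 78.2 in cele16h and 80.2 in PacCele16h. Each treatment contained cells at 0, which Ctrl did not. Its mean same-total E-value was 3.48 ± 0.90 in Ctrl, 2.33 ± 1.39 in Pac16h, 3.26 ± 1.15 in Pac48h, 3.18 ± 1.02 in Cele2h, 2.66 ± 1.72 in cele16h and 2.78 ± 1.41 in PacCele16h. The differences from Ctrl past the limit were −1.15 in Pac16h, −0.81 in cele16h and −0.69 in PacCele16h. ATP6V0D1 was detected in 100% of Ctrl cells (92.3 to 100%), 87.5% in Pac16h (75.9 to 94.8%) and 78.7% in cele16h (66.3 to 88.1%). In PacCele16h it was the only 1 of the 34 to fall on this scale, and that fall was lost with a ratio of linear means (−0.48), with medians over cells (−0.50) and in the 25 cells of index block 3 (−0.32). The fall in cele16h was lost with linear means (−0.32) and medians (−0.53), and that in Pac16h held under every alternative. The deposited differences were −1.74 in Pac16h, −1.86 in cele16h and −0.16 in PacCele16h, the last within the limit.

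ATP6V0B passed the limit in Cele2h only. Its lowest, median and highest same-total values were 249, 775 and 1313 normalized TPM in Ctrl and 82.3, 440 and 1198 in Cele2h, where 57 of 63 cells lay below the Ctrl median. The mean same-total E-value went from 6.21 ± 0.46 in Ctrl to 5.41 ± 0.72 in Cele2h, a difference of −0.80, with 5.70 ± 0.74 in Pac16h, 5.78 ± 0.68 in Pac48h, 6.02 ± 0.58 in cele16h and 5.92 ± 0.58 in PacCele16h. All 5 treatments lay below Ctrl, and 4 of them within the limit. ATP6V0C, the main proton-carrying ring subunit, stayed between 2.42 (Pac16h) and 2.76 (Cele2h) against 2.55 in Ctrl, and ATP6V0E1 between 4.77 (Pac48h) and 5.48 (cele16h) against 5.10. The ATP6V0C value is uncertain, because 76.3% of its exonic bases are shared with 2 other protein-coding models on the same strand and it has 4 named pseudogenes.

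The 2 accessory proteins went apart. ATP6AP1, which helps to assemble V0, rose in Pac48h, cele16h and PacCele16h at the same total, by 0.69, 0.74 and 0.83. Its median over cells was 15.0 normalized TPM in Ctrl (0 to 116), 2.14 in Pac16h (0 to 135), 41.5 in Pac48h (0 to 240), 29.0 in Cele2h (0 to 147), 44.3 in cele16h (0 to 254) and 44.4 in PacCele16h (0 to 167). In the 3 conditions where it rose, 37 of 53, 43 of 61 and 45 of 59 cells lay above the Ctrl median. In mean same-total E-value this was 1.35 ± 1.21 in Ctrl, 1.00 ± 1.18 in Pac16h, 2.03 ± 1.30 in Pac48h, 1.52 ± 1.32 in Cele2h, 2.09 ± 1.37 in cele16h and 2.18 ± 1.22 in PacCele16h. All 3 rises held under every alternative run at the same total. ATP6AP1 also rose in PacCele16h on the deposited scale (1.40), while its difference was 0.32 in Pac48h and −0.09 in cele16h, so that in cele16h the direction depended on the scale. ATP6AP2, the prorenin receptor, fell in Cele2h alone, from 3.17 ± 0.87 to 2.56 ± 1.54, a difference of −0.61 that was lost with linear means (−0.23) and medians (−0.39), and lay at 2.96 ± 1.54, 3.07 ± 1.29, 2.83 ± 1.64 and 3.51 ± 0.95 in Pac16h, Pac48h, cele16h and PacCele16h.

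Among the proteases CTSB and CTSD fell in Pac16h. CTSB ranged from 15.4 to 404 normalized TPM over Ctrl cells (median 148) and from 0 to 461 in Pac16h (median 77.0), with medians of 144, 130, 201 and 190 in Pac48h, Cele2h, cele16h and PacCele16h. The mean same-total E-value was 3.85 ± 0.79 in Ctrl, 2.72 ± 1.70 in Pac16h, 3.62 ± 1.31 in Pac48h, 3.50 ± 1.38 in Cele2h, 4.24 ± 1.19 in cele16h and 4.07 ± 1.19 in PacCele16h, with a difference of −1.13 in Pac16h, which ended at the limit with linear means (−0.58), and the other conditions within it. The spread over cells was wider in Pac16h than in Ctrl, and 17 of 56 cells lay above the Ctrl median. CTSD, an aspartic protease, fell in Pac16h and Cele2h by 0.93 and 0.79. Its means were 2.37 in Ctrl, 1.43 in Pac16h, 2.40 in Pac48h, 1.58 in Cele2h, 2.25 in cele16h and 2.12 in PacCele16h, with SDs from 1.16 to 1.63, and both falls held under every alternative. The 2 low conditions had 46 of 56 and 44 of 63 cells below the Ctrl median. For CTSD, 48.0% of the exonic bases are shared with other gene models, among them 1 protein-coding model on the same strand.

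At 16 h of celecoxib the proteases split. CTSC rose, with a median of 164 normalized TPM over Ctrl cells (0 to 824) and 295 over cele16h cells (0 to 991), and 46 of 61 cele16h cells above the Ctrl median. Its mean same-total E-value was 3.93 ± 1.39 in Ctrl, 3.55 ± 1.42 in Pac16h, 3.59 ± 1.34 in Pac48h, 4.03 ± 1.53 in Cele2h, 4.67 ± 1.18 in cele16h and 3.87 ± 1.41 in PacCele16h. At the same total the rise of 0.75 was therefore present in cele16h and not in PacCele16h, which lay 0.06 below Ctrl. CTSC had the opposite sign in cele16h on the deposited scale, with 3.90 beside 4.48 in Ctrl, a difference of −0.58 that ended just short of the limit. TPP1 rose by 0.69 in cele16h at the same total (0.26 on the deposited scale), where it was detected in 63.9% of cells (50.6 to 75.8%) beside 39.1% of Ctrl cells (25.1 to 54.6%). Its means were 0.61 in Ctrl, 0.70 in Pac16h, 0.88 in Pac48h, 0.42 in Cele2h, 1.30 in cele16h and 0.74 in PacCele16h, with SDs from 0.84 to 1.28. CTSA, the protective protein that holds NEU1 and the beta-galactosidase GLB1 in a complex, fell by 0.67 in cele16h, though not past the limit with linear means (−0.49), and it fell past the limit on the deposited scale as well. CTSA means were 2.39 ± 1.20, 1.84 ± 1.38, 2.10 ± 1.39, 1.81 ± 1.56, 1.72 ± 1.49 and 2.32 ± 1.22 from Ctrl to PacCele16h. CTSL, a cysteine cathepsin, lay between 0.53 below (Pac16h) and 0.28 above Ctrl, and CTSF between 0.02 below (Pac16h) and 0.45 above (Cele2h).

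Of the 5 glycosidases, NEU1 and GLB1 rose in cele16h, and NEU1 also in PacCele16h, at the same total. NEU1, the sialidase of lysosomes (hg38 chr6:31857659-31862905, minus strand), ranged from 0 to 96.8 normalized TPM in Ctrl with a median of 11.6. In cele16h it ranged from 0 to 360 with a median of 48.3, and in PacCele16h from 0 to 204 with a median of 34.5. The medians of Pac16h, Pac48h and Cele2h were 0.472, 20.3 and 2.18, on either side of Ctrl. Its mean same-total E-value was 1.10 ± 1.10 in Ctrl, 0.87 ± 1.19 in Pac16h, 1.55 ± 1.52 in Pac48h, 1.09 ± 1.33 in Cele2h, 2.10 ± 1.58 in cele16h and 1.85 ± 1.38 in PacCele16h. The differences of 1.00 and 0.75 correspond to linear means 3.29 and 2.38 times that of Ctrl, and in the 25 PacCele16h cells of index block 3 the difference was 0.51. By its deposited values NEU1 rose in PacCele16h (1.29) and differed by 0.25 in cele16h. NEU1 was detected in 58.7% of Ctrl cells (43.2 to 73.0%), 75.4% in cele16h (62.7 to 85.5%) and 83.1% in PacCele16h (71.0 to 91.6%).

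GLB1 had means of 1.47 ± 1.38 in Ctrl, 1.38 ± 1.64 in Pac16h, 1.77 ± 1.43 in Pac48h, 1.44 ± 1.53 in Cele2h, 2.09 ± 1.70 in cele16h and 1.87 ± 1.51 in PacCele16h, and rose by 0.62 in cele16h, while its deposited difference there was −0.12. Of the 3 partners of the CTSA complex, NEU1 and GLB1 thus rose in cele16h at the same total and CTSA fell, whereas on the deposited scale CTSA alone passed the limit there. HEXA, the alpha subunit of hexosaminidase, stayed within the limit at the same total, from 0.48 below Ctrl in Pac16h to 0.44 above it in Pac48h. Its deposited values fell in Pac16h (−0.87) and cele16h (−0.86) and rose in PacCele16h (0.65). GUSB, the glucuronidase, lay between 1.55 (Pac16h) and 1.81 (PacCele16h) against 1.75 in Ctrl, and it has 21 named pseudogenes. GAA lay between 0.48 (PacCele16h) and 0.89 (Pac16h) against 0.53 in Ctrl, and was detected in 32.6% of Ctrl cells (19.5 to 48.0%) and 66.1% of Pac16h cells (52.2 to 78.2%).

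The largest rise from Ctrl among the 34 at the same total was that of NPC2 in PacCele16h. NPC2 binds cholesterol in the lumen and hands it to NPC1 in the membrane (NPC2 at hg38 chr14:74476192-74494177, minus strand). Its lowest, median and highest values were 0, 85.6 and 380 normalized TPM in Ctrl, and 51.2, 192 and 460 in PacCele16h, where 54 of 59 cells lay above the Ctrl median. Its mean same-total E-value was 3.03 ± 1.18 in Ctrl, 3.46 ± 1.53 in Pac16h, 3.99 ± 0.85 in Pac48h, 3.62 ± 1.26 in Cele2h, 3.55 ± 1.42 in cele16h and 4.26 ± 0.69 in PacCele16h. All 5 treatments lay above Ctrl, past the limit in Pac48h (0.96), Cele2h (0.60, or 0.41 with medians over cells) and PacCele16h (1.24). On the deposited scale the PacCele16h difference was 1.97, the largest of the 34, while Pac48h and Cele2h, with 0.42 and 0.12, ended within the limit and the Pac16h and cele16h values were −0.20 and −0.58.

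PSAP, the precursor of the saposins that present lipids to hydrolases, fell in Pac16h by 0.67 at the same total. Its medians over cells were 63.7 normalized TPM in Ctrl (0 to 203), 39.9 in Pac16h (0 to 245), 94.6 in Pac48h (0 to 410), 68.5 in Cele2h (0.523 to 416), 87.8 in cele16h (0 to 375) and 104 in PacCele16h (7.27 to 356). In mean E-value these were 2.78 ± 0.96, 2.11 ± 1.30, 3.31 ± 1.08, 2.82 ± 1.14, 3.16 ± 1.37 and 3.35 ± 0.88. The levels in Pac48h and PacCele16h, 0.53 and 0.58 above Ctrl, ended short of the limit, and the Pac16h fall was lost with linear means (−0.50) and medians over cells (−0.56).

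Of the 6 membrane proteins, LAMP2 and NPC1 passed the limit at the same total. LAMP2, of which one form is the receptor for chaperone-mediated autophagy (hg38 chrX:120426148-120469365, minus strand), ranged from 0 to 118 normalized TPM in Ctrl with a median of 26.8. It ranged from 0 to 505 in cele16h (median 79.3) and from 0 to 273 in PacCele16h (median 81.3), with 41 of 61 and 51 of 59 cells above the Ctrl median. The medians of Pac16h, Pac48h and Cele2h, 15.2, 18.9 and 32.4, stood nearer to Ctrl. Its mean same-total E-value was 1.71 ± 1.18 in Ctrl, 1.44 ± 1.37 in Pac16h, 1.61 ± 1.52 in Pac48h, 2.15 ± 1.61 in Cele2h, 2.60 ± 1.72 in cele16h and 2.86 ± 1.17 in PacCele16h. The rises of 0.89 in cele16h and 1.15 in PacCele16h held under every alternative run at the same total. LAMP2 rose by 1.87 in PacCele16h on the deposited scale, but in cele16h it stood level with Ctrl, at a mean of 2.06 in both. LAMP1, the other LAMP, differed from Ctrl by 0.09 or less on this scale in those 2 conditions.

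NPC1, the cholesterol exporter, rose by 0.77 in Pac48h (0.49 on the deposited scale, within the limit). Its means were 1.21 ± 1.00 in Ctrl, 1.69 ± 1.11 in Pac16h, 1.98 ± 0.99 in Pac48h, 1.73 ± 0.97 in Cele2h, 1.78 ± 1.02 in cele16h and 1.64 ± 0.84 in PacCele16h, all above Ctrl. CD63 had means of 6.19 ± 0.76, 6.30 ± 0.86, 6.49 ± 0.82, 6.45 ± 0.71, 5.73 ± 1.07 and 6.42 ± 0.76 from Ctrl to PacCele16h, within the limit throughout. On the deposited scale CD63 lay 1.82 below Ctrl in cele16h and 0.93 above in PacCele16h. LAMP1 means lay between 0.38 (cele16h) and 0.60 (Cele2h) against 0.47 in Ctrl, SCARB2, the receptor that carries glucocerebrosidase to lysosomes, between 1.30 (Pac16h) and 1.89 (PacCele16h) against 1.44, and MCOLN1 between 0.48 (Pac16h) and 0.70 (Pac48h) against 0.69.

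**Figure D3:**
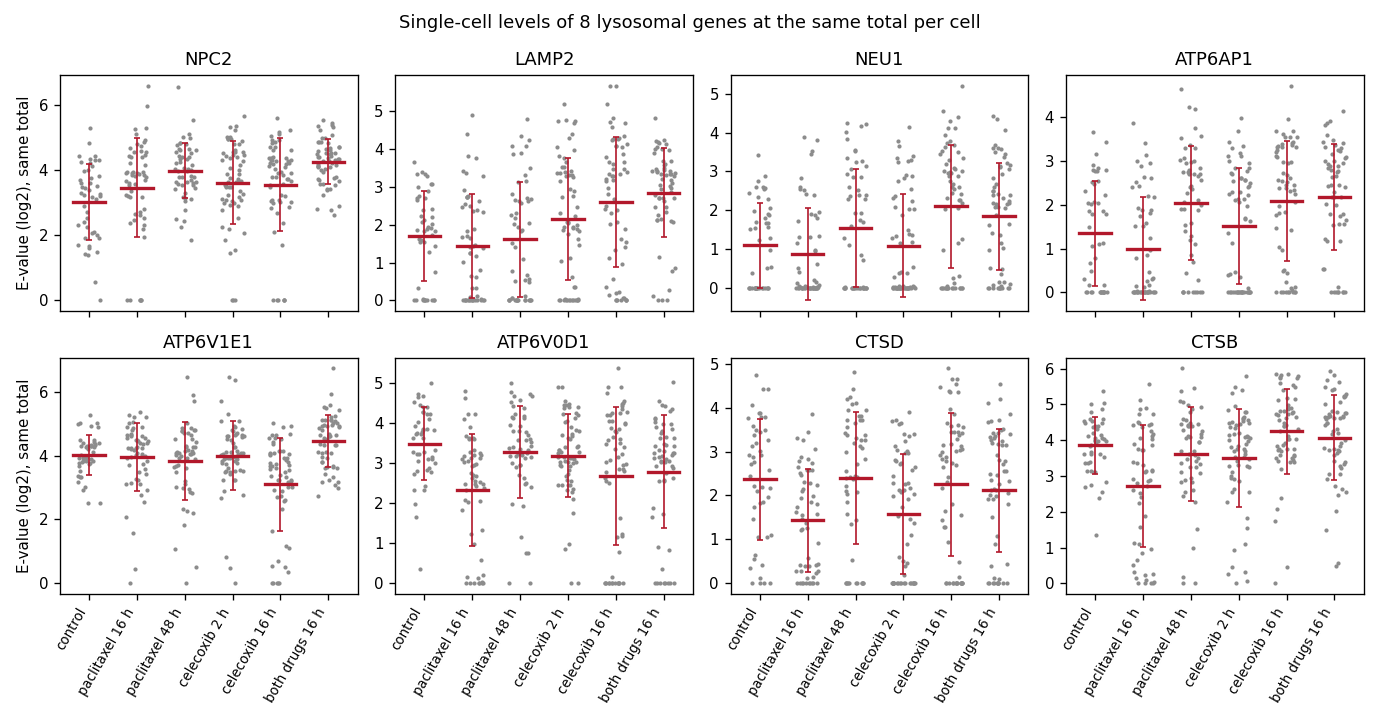
Same-total E-value (log2(N/10 + 1)) of every cell (grey points) in the 6 conditions for 8 genes, with the mean (red bar) and SD over cells (red line). NPC2, LAMP2, NEU1 and ATP6AP1 in the upper row have raised means in PacCele16h (4.26, 2.86, 1.85 and 2.18), while the lower row shows falls of ATP6V1E1 in cele16h (3.10) and of ATP6V0D1, CTSD and CTSB in Pac16h (2.33, 1.43 and 2.72).

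Summed over genes, the lysosomal transcripts made up a small and fairly steady part of each cell. The median share of the 34 genes in a cell's transcript total was 0.511% in Ctrl, 0.455% in Pac16h, 0.527% in Pac48h, 0.515% in Cele2h, 0.567% in cele16h and 0.570% in PacCele16h. The pump genes held 0.340% in Ctrl (0.250 to 0.557% over cells), 0.296% in Pac16h (0.161 to 0.660%), 0.331% in Pac48h, 0.304% in Cele2h, 0.366% in cele16h and 0.347% in PacCele16h. In Pac16h 9 of 56 cells, and in Cele2h 16 of 63, lay above the Ctrl median of the pump. The median share of V0 was lowest in Cele2h, with 0.0949% beside 0.130% in Ctrl. The V1 share was 0.193% in Ctrl and 0.226% in cele16h, although 4 V1 genes had a lower mean E-value there. The sum gives most weight to abundant genes such as ATP6V1F and ATP6V1G1.

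The median share of the lumen and membrane genes was 0.171% in Ctrl, 0.167% in Pac16h, 0.210% in Pac48h, 0.208% in Cele2h, 0.199% in cele16h and 0.217% in PacCele16h, and 52 of 59 PacCele16h cells lay above the Ctrl median. Within them the proteases held 0.0528% in Ctrl, 0.0397% in Pac16h and 0.0820% in cele16h, a ratio of medians of 0.75 and 1.55. NPC2 and PSAP together held 0.0157% in Ctrl and 0.0291% in PacCele16h, a ratio of 1.86, with 56 of 59 cells above the Ctrl median. The ratio of lumen and membrane transcripts to pump transcripts within a cell had a median of 0.513 in Ctrl (0.319 to 1.01), 0.557 in Pac16h, 0.617 in Pac48h, 0.687 in Cele2h (0.261 to 1.34), 0.525 in cele16h and 0.639 in PacCele16h (0.371 to 1.21). This ratio is free of the spike-in scaling, and 49 of 63 Cele2h cells and 52 of 59 PacCele16h cells lay above the Ctrl median. All of these are shares of transcripts, and the number of lysosomes was not measured.

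**Figure D4:**
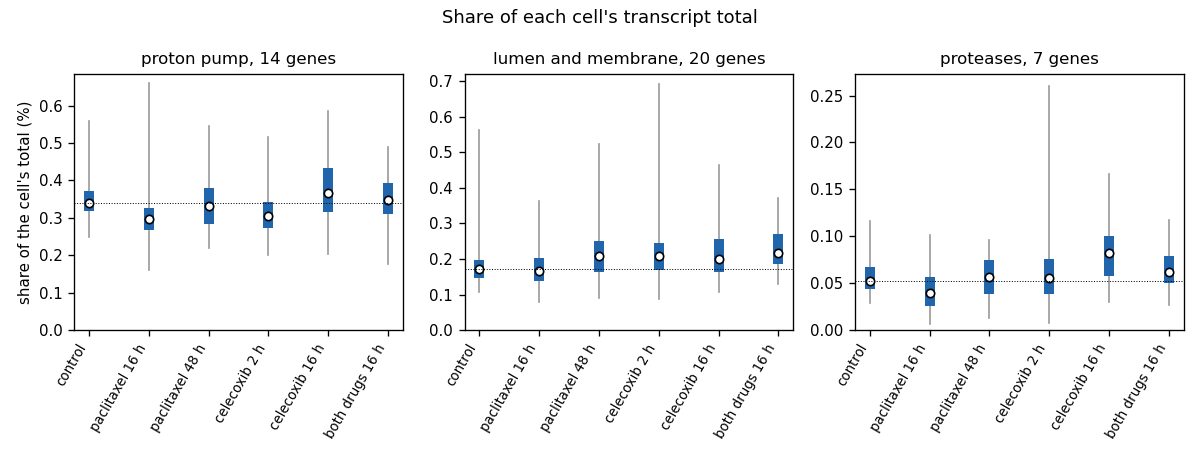
Share (%) of each cell's transcript total held by the pump genes, the lumen and membrane genes and the proteases in the 6 conditions, with the median over cells (white point), the interquartile range (blue bar) and the full range (grey line). The dotted line is the Ctrl median (0.340, 0.171 and 0.0528%), above which the proteases of cele16h stand with 0.0820% and below which the pump stands in Pac16h with 0.296%.

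Adding celecoxib to paclitaxel at 16 h went with higher lysosomal transcripts on both scales. PacCele16h against Pac16h gave 29 of 34 genes up and 0 down on the deposited scale, where 62.4% of all genes rose and 0.031% fell. At the same total 12 rose, against 9.56% of all genes, and 0 fell, against 1.63%, and the median difference was 0.46 over the 34 and 0.10 over all genes. LAMP2 rose by 1.42, CTSB by 1.35, PSAP by 1.25, ATP6AP1 by 1.18 and NEU1 by 0.98, followed by ATP6V1H, CTSL, NPC2, HEXA, ATP6V1B2, CTSD and SCARB2 with 0.84 to 0.59. Of these 12, CTSB, CTSD and PSAP were also among the 4 that lay past the limit below Ctrl in Pac16h, and both differences share the Pac16h cells.

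Adding paclitaxel to celecoxib at 16 h went with higher levels of 4 V1 genes. PacCele16h against cele16h gave 30 genes up and 0 down on the deposited scale (66% and 0.0414% of all genes), and 8 up and 1 down at the same total (5.03% and 4.39%). The 8 were ATP6V1E1 (1.36), ATP6V1H (1.00), ATP6V1D (0.93), NPC2 (0.71), CD63 (0.69), ATP6AP2 (0.68), ATP6V1A (0.65) and CTSA (0.60), and CTSC fell by 0.80. The 4 V1 genes among them are the 4 that lay past the limit below Ctrl in cele16h, whose cells both comparisons share.

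Each single drug was also compared between its 2 times. From Pac16h to Pac48h 9 genes rose and 0 fell on the deposited scale (7.88% and 0.352% of all genes), while 8 rose and 0 fell at the same total (6.18% and 1.18%). The 8 were PSAP (1.20), ATP6AP1 (1.04), CTSD (0.97), ATP6V0D1 (0.93), HEXA (0.92), CTSB (0.90), ATP6V1H (0.90) and NEU1 (0.68). From Cele2h to cele16h 8 fell and 0 rose on the deposited scale, beside 19.3% and 0.528% of all genes. The same-total scale gave 8 up and 4 down (7.87% and 3.9%), with NEU1 (1.01), TPP1 (0.88), ATP6V1B2 (0.82), CTSB (0.74), CTSD (0.68), CTSC (0.65), GLB1 (0.65) and ATP6V0B (0.60) up and ATP6V1E1 (−0.90), ATP6V1H (−0.87), ATP6V1A (−0.80) and CD63 (−0.72) down. Of the 4 that fell from 2 to 16 h of celecoxib 3 were V1 genes, which make up 8 of the 34. ATP6V1B2, also of V1, was among the 8 that rose, and this split was not tested.

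Other genes of the same organelle were read from lists of named genes at the same total, with the counts on the deposited scale after them. The shares of all genes that rose and fell at the same total were 1.4% and 10% in Pac16h, 3.28% and 5.77% in Pac48h, 3.31% and 8.11% in Cele2h, 7.38% and 7.95% in cele16h, and 5.95% and 5.79% in PacCele16h. Of the 14 other pump subunits and assembly factors listed, 1 to 2 rose in each treatment but Pac16h, which had 0, and 0 to 2 fell. TMEM9, a membrane protein that binds the pump, rose in Pac48h (0.60), Cele2h (0.60), cele16h (1.02) and PacCele16h (0.70). ATP6V0E2, the second form of the e subunit, fell in Pac16h (−1.22), Pac48h (−0.77), cele16h (−1.02) and PacCele16h (−0.66), while ATP6V0E1 stayed within the limit. CCDC115, an assembly factor, rose (0.61) and TMEM199, its partner in assembly, fell (−0.64) in PacCele16h. With deposited values 7, 3, 4 and 4 of the 14 fell in Pac16h, Pac48h, Cele2h and cele16h and 8 rose in PacCele16h, and TMEM9 lay at −0.29 in cele16h, the opposite sign.

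Of the 35 other hydrolases and cofactors listed, 0 rose and 4 fell in Pac16h, 1 rose and 4 fell in both Pac48h and Cele2h, 3 rose and 2 fell in cele16h, and 4 rose and 1 fell in PacCele16h. RNASET2, an acid ribonuclease, rose in Cele2h (1.02), cele16h (1.28) and PacCele16h (0.63). GGH, which trims folate polyglutamates, fell in Pac48h (−0.73), cele16h (−1.29) and PacCele16h (−0.63), and GLA, the alpha-galactosidase, fell in cele16h (−1.05). HYAL2, a hyaluronidase, fell in Pac16h (−0.81) and Cele2h (−0.95) and rose in cele16h (0.72). PPT1, a thioesterase, and IFI30, a thiol reductase, fell in Pac48h (−0.83 and −0.80) and Cele2h (−0.78 and −0.89). SIAE, a sialic acid esterase, rose in Pac48h (0.72) and PacCele16h (0.69), and PPT2, another thioesterase, and PLD3, an exonuclease, fell in Pac16h (−1.19 and −0.86). Of the 35, 14, 8, 12 and 14 fell on the deposited scale with the single drugs, in the order above, 1 rose in Cele2h and 13 rose in PacCele16h, and HYAL2 had the opposite sign in cele16h (−0.35).

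Of the 23 other membrane proteins and transporters, 4 rose and 0 fell in both cele16h and PacCele16h, 0 rose and 2 fell in Pac16h, 0 moved in Pac48h, and 1 rose and 2 fell in Cele2h. MFSD8, a lysosomal transporter, rose in Cele2h (0.78), cele16h (0.88) and PacCele16h (1.31). CD164, a sialomucin, and TSPAN3, a tetraspanin, rose in cele16h (0.86 and 0.74) at the same total but had the opposite sign on the deposited scale (−0.42 and −0.61, the latter past the limit), and TMEM106B and LAPTM4A in PacCele16h (0.71 and 0.66). SLC11A2, an iron transporter, and TSPAN3 fell in Pac16h (−0.83 and −0.80), and MFSD1 and LAPTM4B in Cele2h (−0.68 and −0.59). Among the 10 genes of mannose 6-phosphate tagging and sorting, which bring hydrolases to the lysosome, 0 passed the limit in any treatment at the same total. The deposited counts were 9, 3, 4 and 9 of the 23 membrane proteins and 2, 1, 2 and 2 of the 10 sorting genes down with the single drugs, and 10 and 2 up in PacCele16h.

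Autophagy delivers cargo to lysosomes, and of its 38 genes 9 rose and 1 fell in PacCele16h at the same total. The other counts were 0 up and 4 down in Pac16h, 3 and 2 in Pac48h, 2 and 1 in Cele2h, and 4 and 2 in cele16h. Their deposited values gave 0 up and 13, 5, 8 and 16 down with the single drugs, and 19 up and 1 down in PacCele16h. GABARAPL2, which coats autophagosomes, rose in Pac48h (0.75), Cele2h (0.96) and PacCele16h (1.06), and WDR45, which binds their precursors, rose in Pac48h (0.75), Cele2h (0.66), cele16h (1.18) and PacCele16h (1.08). SQSTM1, the cargo receptor p62, fell in Pac16h (−0.92), Cele2h (−0.77) and cele16h (−0.82). ATG101, of the starting complex, fell in Pac16h (−1.19), Pac48h (−0.63) and PacCele16h (−0.82), and the remaining named changes were rises of ATG10 (0.95) in Pac48h, VMP1 (0.66) and ATG4C (0.61) in cele16h and CALCOCO2 (0.93) in PacCele16h, and falls of ATG4B (−0.81) in Pac16h, ATG5 (−0.94) in Pac48h and ATG3 (−0.91) in cele16h. VMP1 and ATG4C had the opposite sign on the deposited scale (−0.64, past the limit, and −0.15). Of 24 genes listed for TFEB-family factors and nutrient sensing at the lysosome, 4 fell in Pac16h, 1 in Pac48h and 0 elsewhere, and 2 rose in cele16h. Deposited values gave 10, 5, 8 and 10 down with the single drugs and 8 up in PacCele16h. MLST8, a subunit of the mTOR complexes, fell in Pac16h (−0.76) and rose in cele16h (1.03, or −0.17 on the deposited scale), SEC13 (−0.95) and NPRL2 (−0.62) fell in Pac16h and SEH1L (−0.73) in Pac48h.

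Other assemblies were counted beside the pump. The proteasome, which degrades protein outside lysosomes, had 11, 14, 14, 28 and 13 of its 34 subunits down at the same total in Pac16h, Pac48h, Cele2h, cele16h and PacCele16h, and 0 up in each, beside the shares of all genes given above. With the single drugs 34, 33, 33 and 34 fell on the deposited scale, but 3 rose and 0 fell in PacCele16h, so its direction there depended on the scale. The falls led in cele16h with PSMB4 (−1.70), PSMB7 (−1.49) and PSMC1 (−1.46), in Pac16h with PSMC4 (−0.98), PSMC6 (−0.89) and PSMC1 (−0.85), and in Pac48h with PSMC2 (−1.01), PSMD11 (−0.91) and PSMC1 (−0.87). In Cele2h they led with PSMD11 (−1.03), PSMC2 (−0.79) and PSMC1 (−0.78), and in PacCele16h with PSMC1 (−0.88), PSMA7 (−0.85) and PSMB4 (−0.84). By comparison the 34 lysosomal genes had 4, 0, 3, 6 and 1 down at the same total. The mitochondrial ATP synthase, a related rotary enzyme, had 7 of 18 subunits down in cele16h, led by ATP5G1 (−1.05), ATP5G3 (−0.96) and ATP5L (−0.90), and 1 down in PacCele16h, also ATP5G1 (−0.80), while ATPIF1, its inhibitor, rose in Pac48h (0.59, or −0.03 on the deposited scale) and Cele2h (0.60). The deposited values of 12, 12, 8 and 18 of the 18 fell with the single drugs and those of 11 rose in PacCele16h. The differences between these lists were not tested.

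From cell to cell within a condition, the pump and the rest of the lysosomal genes varied together. Pearson's r between the mean E-value of the 14 pump genes and that of the 20 others was between 0.62 (Pac48h) and 0.79 (Ctrl) on the deposited scale, where the mean of the pump also followed the transcript total of the cell (r from 0.74 to 0.87). At the same total r was 0.58 in Ctrl and between 0.36 and 0.42 in the 5 treatments. There r with the transcript total was 0.09 (Ctrl) to 0.42 (cele16h) for the pump. For the 20 others it was −0.03 (Pac48h) to 0.34 (PacCele16h), so the same-total scale did not remove this link in every condition. No r of other gene groups is given here. For single pairs of genes r was low, with a median over the 561 pairs of 0.02 to 0.07 at the same total and 0.13 to 0.20 on the deposited scale. These values describe 46 to 63 cells of conditions each taken as 1 run, whose cells share that run, and have no test.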

How the data were processed

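Smart-seq2 reads were trimmed by the authors with Trim Galore and aligned with Bowtie2 to the transcripts of GENCODE version 28 (hg38) and 3 spike-ins, from which RSEM 1.3.0 gave TPM. TPM were divided by the strongest spike-in of the cell. Cells with few housekeeping genes were dropped, and a gene was listed if over 30% of the cells in some condition had it. The deposited values are log2 E-values, log2(N/10 + 1), for 9664 genes and 338 of 372 cells. The deposited cell states were not used.

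Here N was recovered from each E-value. For the same-total scale each cell was rescaled to a sum of 986662 normalized TPM, the median over all cells. Means over cells were compared without a test, since each condition was taken as 1 run. Reads per cell are unknown, so depth is described by genes detected. Comparisons with Ctrl share its cells, and E-value differences are on the log2(N/10 + 1) scale. The calculation was also run on simulated data, and what came out is not given here.

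The genes and lists were chosen with earlier results of these data known. Each gene is given by its calls, with values by condition for those past the limit at the same total and for the highest and lowest Ctrl level of each role, and of other lists up to 3 rises and 3 falls detected in at least 30% of cells of both groups. The values of 1 gene that this rule names are not reported here. Alternatives were linear means, a pseudocount of 1, medians over cells, each index block alone, no wells noted as 0 or debris, a 50% detection limit, the same-total in place of the deposited scale, and, chosen after seeing the data, a common total at the control median and the deposited in place of the same-total scale. Coordinates and overlaps are from GENCODE version 44 on hg38, and promoters from RefSeq. Strand in the authors' counting is not given in the sources used here. The work was done in Python 3.11.15 with pandas 2.3.3, numpy 2.4.6, scipy 1.17.1 and matplotlib 3.10.9.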

Additional observations from a re-analysis of the deposited data

Results flagged for a closer look

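Celecoxib went with opposite differences of ATP6V1H, the regulatory H subunit of V1, without and with paclitaxel. On the same-total scale its mean E-value differed by −0.71 between cele16h and Ctrl and by 0.84 between PacCele16h and Pac16h. It was the only 1 of the 34 genes past the limit in opposite directions in these comparisons. With linear means the difference between cele16h and Ctrl was −0.34, within the limit. For PacCele16h against Pac16h no alternative but the scale was run. With each condition taken as 1 run, the difference between them was not tested. Of all genes 7.95% fell in the first comparison and 9.56% rose in the second. On the deposited scale 20 of the 34 genes went down and up in this way, and 23 went down from Ctrl to Pac16h and up from cele16h to PacCele16h. Of all genes 43.9% fell and 62.4% rose in the former comparisons, and 37.3% fell and 66% rose in the latter. How many of all genes went both ways is not given here. On this scale the median transcript total itself was lower with each single drug and higher with both.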

How the results depend on the processing

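No paired analysis was possible because each condition was taken as 1 run without named replicates. Of the 28 changes from Ctrl past the limit at the same total, 16 held under every alternative on that scale, 17 held on the deposited scale and 7 held under all of these. Of the 86 on the deposited scale 70, 17 and 17 did. The 50% detection limit only left genes out and could not change a difference, so it could not overturn a call. At the same total it applied to 27 of the 28, and TPP1 in cele16h, which it left out, was counted among the 16. Differences between treatments were given on both scales, and no other alternative was run for them. The scale mattered most. Moving from the deposited to the same-total scale left 4 genes down in Pac16h (median −0.24), 3 up and 0 down in Pac48h, 1 up and 3 down in Cele2h, 6 up and 6 down in cele16h (median 0.093), and 4 up and 1 down in PacCele16h. It also turned the sign of CD63 in Pac16h (0.10), ATP6V1F in Pac48h (0.0043) and PacCele16h (−0.080), and, in cele16h, ATP6V0C (0.0021), ATP6V0E1 (0.39), ATP6V1C1 (0.043), ATP6V1F (0.20), ATP6V1G1 (0.33), CTSB (0.39), CTSL (0.28) and PSAP (0.38). In the other direction, from the same-total to the deposited scale, the signs of ATP6AP1 (−0.094), CTSC (−0.58) and GLB1 (−0.12) turned in cele16h, and the counts were 23 down in Pac16h (median −0.84), 0 up and 12 down in Pac48h, 0 up and 11 down in Cele2h, 0 up and 20 down in cele16h (median −0.85), and 20 up and 0 down in PacCele16h. Directions of single genes that changed with any other alternative numbered 0.

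On the deposited scale a pseudocount of 1 gave 1 gene up in Pac16h, 3 up and 19 down in Pac48h, 3 up in Cele2h and 2 up in cele16h. Medians over cells gave 1 up in Pac48h and 17 down in Cele2h, and index block 4 alone 2 up in Pac48h. At the same total, linear means gave 3 up and 2 down in Pac16h, 7 up in Pac48h, 4 up in Cele2h, 12 up and 0 down in cele16h, and 7 up and 0 down in PacCele16h. A pseudocount of 1 gave 2 up and 14 down in Pac16h, 9 up and 1 down in Pac48h, 4 up and 7 down in Cele2h and 7 up in PacCele16h. Medians gave 10 down in Pac16h, 6 up in Pac48h, 2 up and 6 down in Cele2h, and 7 up and 0 down in PacCele16h. A common total at the control median gave 8 down in Pac16h and 2 up in Cele2h, index block 4 alone 1 down in Pac48h, and index block 3 alone 0 down in PacCele16h. The causes were not tested. The window of 250 bases before the start gave the same promoter counts, 11 and 6 of 25.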
